A study of Mus musculus with 65 samples.

Results

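The genes described here are the chains of mouse collagen other than Col4a1 and Col4a2. They were chosen by symbol alone, as every name of the form Col, number, a, number in the gene count tables, which gave 44 genes, and 42 after leaving out Col4a1 and Col4a2, of 24465 symbols in all. By textbook class they are 11 fibrillar chains, 7 network-forming chains, 6 chains of the beaded filament collagen VI and its relatives, 1 anchoring fibril chain (Col7a1), 9 fibril-associated chains, 4 transmembrane chains, 2 multiplexins (Col15a1 and Col18a1) and 2 others (Col26a1 and Col28a1). A mean of 5 CPM (read counts scaled to the library total) or more in at least 1 RNA group was reached by 31 of the 42, and these are described singly. The other 11 (Col4a3, Col4a4, Col6a4, Col6a6, Col9a1, Col10a1, Col14a1, Col17a1, Col19a1, Col26a1 and Col28a1) stayed between 0 and 7.12 CPM in every library.

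Collagens are secreted or membrane-bound proteins built as triple helices of 3 chains. Fibrillar chains assemble into the rope-like fibrils of bone, skin, tendon and cartilage, network chains into sheets such as basement membranes, and fibril-associated chains bind to the surface of fibrils. Chains are hydroxylated and folded in the endoplasmic reticulum. Fibrillar chains are trimmed outside the cell by propeptide proteases and cross-linked by lysyl oxidases. Mesenchymal cells that arise in embryoid bodies are known sources of fibrillar collagen. Trimethylation of lysine 27 of histone H3 (H3K27me3) is placed by Polycomb repressive complex 2 and is a mark of silent or poised promoters. H3.3 is the H3 variant that is deposited outside DNA replication.

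Mouse embryonic stem cells were kept on gelatin with serum and leukaemia inhibitory factor (day 0) or differentiated as rotating embryoid bodies without that factor and with 10 µM all-trans retinoic acid (days 3 and 6). RNA libraries sequenced in 2019 held wild-type cells at days 0, 3 and 6 (n = 2 each). RNA libraries sequenced in 2020 held 3 lines at days 0 and 6, namely the wild type, an H3.3A knockout and an H3.3K27A line (n = 2 each, except wild type at day 0 with n = 1, replicate 2). Both edited lines were made with CRISPR/Cas9; whether each is 1 clone is not given in the sources used here. Chromatin was profiled by ChIP-seq in the wild type alone, as biological duplicates of each day (0 and 6), for H3, H3.3, H3K27me3 and, with a custom antibody, H3.3K27me3. The RNA labels do not say that duplicates were separate cultures, so RNA p-values measure the spread between these libraries, which may be technical.

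Gene counts summed to 6965704 to 12711698 per library in 2019 and 14270549 to 22032871 in 2020, and ChIP libraries held 33.62 to 81.65 M tags. H3f3a, the gene named by the knockout, lay at 21.0 to 22.8 CPM in the knockout libraries and at 20.4 to 24.2 CPM in the H3.3K27A libraries, against 113 to 128 CPM in wild type of 2020. The second gene for H3.3, H3f3b, lay at 868 to 1138 CPM in the knockout, 792.5 to 889.3 in wild type of 2020 and 500.3 to 600.6 in H3.3K27A. Summed markers of embryonic stem cells were 4001.9 to 5021 CPM over the 7 day 0 libraries and 137.6 to 425.4 CPM over the 8 day 6 libraries. The H3.3A knockout libraries of day 6 stood apart from the other day 6 libraries and from each other: their 13 primitive and visceral endoderm markers summed to 14519 and 9267 CPM, against 2934 and 3679 CPM in wild type and 2333 and 2883 CPM in H3.3K27A, and 12 of the 13 were higher than in wild type. The 5 day 0 libraries of 2020 differed from the 2 of 2019 in smooth muscle and pericyte markers (290 to 344 CPM summed against 31.0 and 31.0) and in fibroblast and mesenchyme markers (349.5 to 430.5 against 237.6 and 212.4, with Dpt at 0 in both years and Fap, Dcn and Lum at 0 in 2019). The part of either difference in the collagen results was not tested. Whether reads were counted by strand is not given in the sources used here, so reads of overlapping antisense genes cannot be told apart. In bulk RNA, a lower level from fewer cells of a type and from less RNA per cell cannot be told apart.

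Collagen promoters were examined for the marks first. A promoter was taken as the window of 1000 bp on each side of the start site of the main GENCODE vM21 transcript, on the mouse build mm10 that the files use, and was said to carry a mark when a deposited filtered peak lay in that window in both duplicates. At day 0, 20 of the 42 collagen promoters (47.6%) carried H3K27me3, against 18.9% of 20030 promoters of protein-coding genes, and at day 6 11 did (26.2%, against 11.4%). H3.3K27me3 was on 7 collagen promoters at day 0 (16.7%, against 11.4%) and on 0 at day 6 (against 2.56%). The day 6 libraries of this mark were the shallowest of the 16 ChIP libraries, with 30.45 and 34.2 M tags kept against 71.13 and 49.87 at day 0, while their filtered peaks numbered 26215 and 14483 against 14796 and 12690. The part of depth in the 0 was not tested. Total H3.3 peaks were on 2 collagen promoters at each day (4.76%), against 39.2% of promoters at day 0 and 26.4% at day 6. H3 peaks were on 0 collagen promoters at either day, against 5.49% and 2.04%. These shares are descriptions of 42 named genes, and no test of them was made.

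The 7 promoters with H3.3K27me3 at day 0 were those of Col2a1, Col12a1, Col14a1, Col15a1, Col23a1, Col25a1 and Col26a1. Of these, 6 also carried H3K27me3 in both duplicates. Col23a1, a transmembrane collagen, had H3K27me3 in 1 duplicate at day 0 and in both at day 6. The authors' deposited log2 difference for its H3K27me3 region (day 0 minus day 6) was 0.51, with a false discovery rate of 0.0123. The signal was thus lower at day 6, and the peak calls do not show a gain. H3K27me3 was on the promoter at both days for Col2a1, Col8a2, Col9a3, Col12a1, Col13a1, Col14a1, Col15a1, Col19a1, Col25a1 and Col27a1. It was there at day 0 and not in both duplicates at day 6 for Col1a1, Col1a2, Col4a3, Col4a4, Col5a1, Col5a3, Col6a6, Col7a1, Col24a1 and Col26a1. Of these 10, Col5a1, Col5a3, Col6a6 and Col7a1 had no peak in either duplicate at day 6, and the other 6 had it in 1 duplicate. Col4a3 and Col4a4 start 127 bp apart in opposite directions and share their peak, so they count as 1 site. For H3.3, the promoters of Col8a2 and Col13a1 had peaks in both duplicates at day 0 and not at day 6. Those of Col3a1 and Col26a1 had them at day 6 and not at day 0. The authors' deposited H3.3 differences (log2, day 0 minus day 6) were not called for Col13a1 (0.30, false discovery rate 0.119) or Col26a1 (0.12, 0.324). With a peak in either duplicate counted, 18 promoters had H3.3K27me3 at day 0, and with an enrichment of at least 3, a limit chosen after the data were seen, 0 did. The shares of all promoters under these rules are not given here, so these counts cannot be set against a background.

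**Figure D1:**
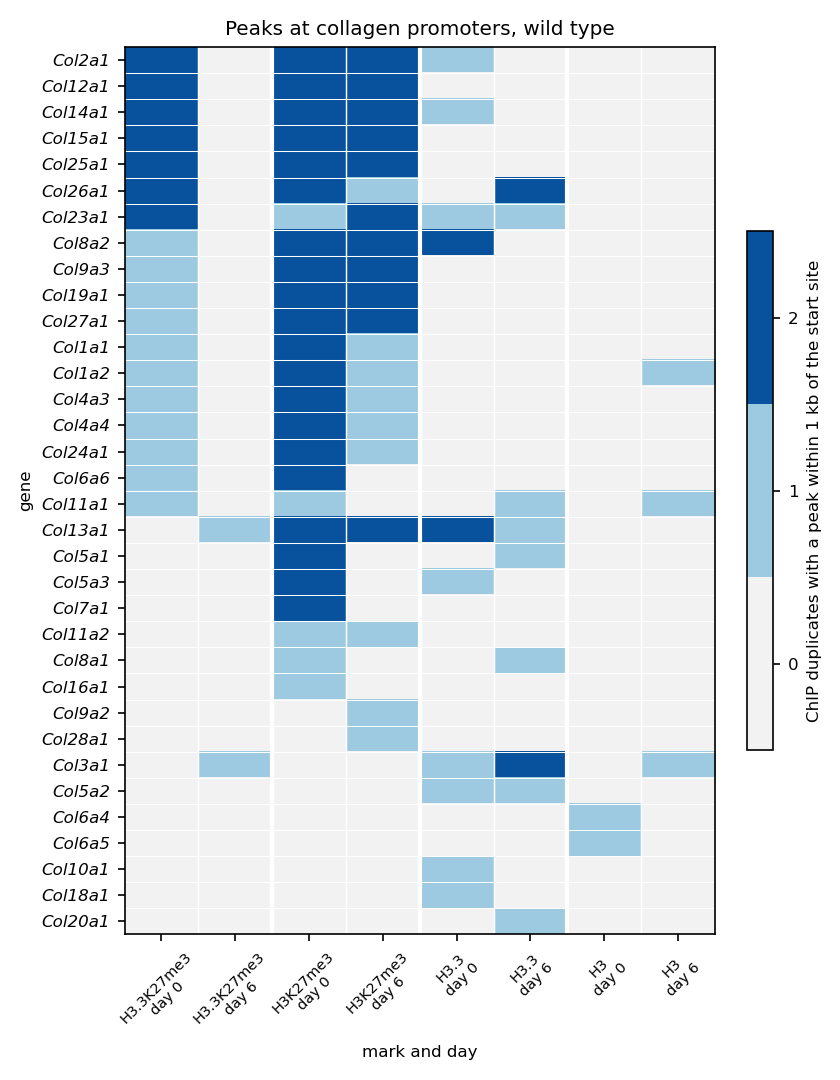
Number of ChIP duplicates (0, 1 or 2, colour) with a filtered peak within 1000 bp of the start site, for the collagen genes (rows) with any such peak and each mark and day (columns) in wild-type cells. The first 7 rows have H3.3K27me3 in both duplicates at day 0, and no row has it in both at day 6.

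The 250 bases before the start site of 4 genes are shown because they span the promoter states above and the RNA results below. Capitals mark CG dinucleotides. Sequences and start sites are from RefSeq on GRCm38.p6, the assembly of mm10, and all 4 are on the + strand. Col27a1 (chr4:63215162-63215411) had H3K27me3 at both days, Col23a1 (chr11:51289670-51289919) had H3.3K27me3 but not H3K27me3 in both duplicates at day 0, Col8a2 (chr4:126286544-126286793) had H3K27me3 at both days and H3.3 at day 0, and Col3a1 (chr1:45311288-45311537) had neither K27me3 mark in both duplicates and had H3.3 at day 6.
Col27a1: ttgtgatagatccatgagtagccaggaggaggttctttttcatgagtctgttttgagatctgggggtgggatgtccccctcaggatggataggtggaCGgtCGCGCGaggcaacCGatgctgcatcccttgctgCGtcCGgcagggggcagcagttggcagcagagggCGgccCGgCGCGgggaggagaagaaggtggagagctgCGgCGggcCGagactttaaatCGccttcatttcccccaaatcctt
Col23a1: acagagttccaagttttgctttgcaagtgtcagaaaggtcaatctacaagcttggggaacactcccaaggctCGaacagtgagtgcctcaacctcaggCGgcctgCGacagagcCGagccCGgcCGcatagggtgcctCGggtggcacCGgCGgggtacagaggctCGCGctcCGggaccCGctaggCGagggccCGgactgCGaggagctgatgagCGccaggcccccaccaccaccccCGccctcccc
Col8a2: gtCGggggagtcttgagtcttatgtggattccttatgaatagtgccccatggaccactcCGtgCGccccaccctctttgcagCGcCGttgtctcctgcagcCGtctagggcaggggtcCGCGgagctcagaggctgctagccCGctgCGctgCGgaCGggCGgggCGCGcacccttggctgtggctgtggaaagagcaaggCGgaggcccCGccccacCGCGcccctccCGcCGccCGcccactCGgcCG
Col3a1: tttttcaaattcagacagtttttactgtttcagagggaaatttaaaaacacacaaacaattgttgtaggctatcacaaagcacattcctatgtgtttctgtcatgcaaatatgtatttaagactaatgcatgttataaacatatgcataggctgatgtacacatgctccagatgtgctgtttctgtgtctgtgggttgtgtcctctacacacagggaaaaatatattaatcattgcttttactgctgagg
These hold 15, 18, 24 and 0 CG dinucleotides in the order printed. The Col3a1 stretch has 35.2% G and C, against 59.6% in Col27a1, 66% in Col23a1 and 70% in Col8a2.

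Of the 42 genes, 33 were found in the RefSeq promoter table. The ratio of observed CG dinucleotides to the number expected from base composition had a median of 0.592 over the 13 of them with H3K27me3 at day 0 and 0.272 over the 20 without it, with 0.575 over 15701 genes. The letters TATAAA, searched on both strands of the 250 bases, were in 5 of the 33 (Col3a1, Col10a1, Col11a2, Col13a1 and Col17a1) and in 12% of the 15701. CCAAT was in 9 of 33 (36.1% of all), GGGCGG, a GC box, in 19 of 33 (45.3%), and AGGTCA, a core site of retinoic acid receptors, in 8 of 33 (12.2%), Col23a1 among them. Motifs were counted separately, with any overlap between them left in, and a match is a match of letters only.

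The highest H3K27me3 enrichment at a collagen promoter in a single library was at Col2a1, the fibrillar chain of cartilage. Enrichment here is the pileup over the genome-wide mean, as the authors' peak caller gave it. It was 5.35 and 7.68 in the day 0 duplicates and 3.02 and 2.62 at day 6. The longest H3K27me3 peak at a collagen promoter lay over Col1a2 at day 0, at 67.1 and 46.0 kb, with 10.7 kb in 1 duplicate at day 6. At Col27a1 the enrichment was 4.40 and 5.22 at day 0 and 3.02 and 2.77 at day 6. At Col23a1 H3.3K27me3 had an enrichment of 2.44 and 3.00 at day 0.

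In the authors' deposited table of H3K27me3 regions, 22 collagen promoters lay in a region, and 16 of them were lower at day 6 at a false discovery rate below 0.05, with 0 higher. Of all promoters with a region there, 52.2% were lower and 2.62% higher. The authors' deposited table gave a log2 difference (day 0 minus day 6) of 0.80 at Col2a1 (false discovery rate 2.11e-13), 0.79 at Col26a1 and 0.74 at Col27a1 (9.95e-09). Col1a2 lay in a region of 184.5 kb with a difference of 0.35 (1.51e-12), and Col1a1 differed by 0.31 (0.0378), both from the authors' deposited table. The 6 not called were Col4a3 and Col4a4 (1 shared region), Col7a1, Col11a2, Col15a1 and Col24a1. In the authors' deposited table of H3.3 regions, 7 collagen promoters were listed: Col18a1 (0.31) and Col8a2 (0.26) were lower at day 6 and Col3a1 (−0.25, false discovery rate 0.0355) was higher, against 61.1% and 4.44% of all promoters. Col3a1 was the only collagen promoter in the authors' deposited H3 table (55.0% of its promoters lower, 3.17% higher), with a difference of −0.12 that was not called.

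Across differentiation of the wild type in 2019, collagen RNA rose broadly. Between day 0 and day 6, 28 of the 36 tested collagen genes rose (background 41.4% of 13593 tested genes) and 5 fell (background 36.6%), so 33 were called in either direction against a background of 78.0%. The median log2 fold change was 2.74 over the tested collagen genes and 0.09 over all tested genes. Calls are adjusted p below 0.05 in edgeR's quasi-likelihood test with Benjamini-Hochberg adjustment over all genes, and values after ± are standard errors in log2 units. Col4a3, Col4a4, Col10a1, Col19a1, Col26a1 and Col28a1 were too low to be tested. Genes near 0 at day 0 enter the test only through the days at which they are high, which bears on the count of those that rose. In the authors' deposited table for the same days, 29 of 42 were higher and 5 lower, with the sign shared by all 36 genes tested in both. The 29 include Col26a1, which the authors' deposited table gives a log2 fold change of 6.55 (adjusted p = 2.85e-131). The deposited counts held 2 reads of Col26a1 at day 0 and 0 at day 6, so the 2 sources conflict for this gene. From day 0 to day 3, 26 rose (background 37.6%) and 6 fell (background 33.8%), 32 in all against 71.4%. From day 3 to day 6, 19 rose (background 29.4%) and 4 fell (background 27.9%), 23 in all against 57.3%.

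**Figure D2:**
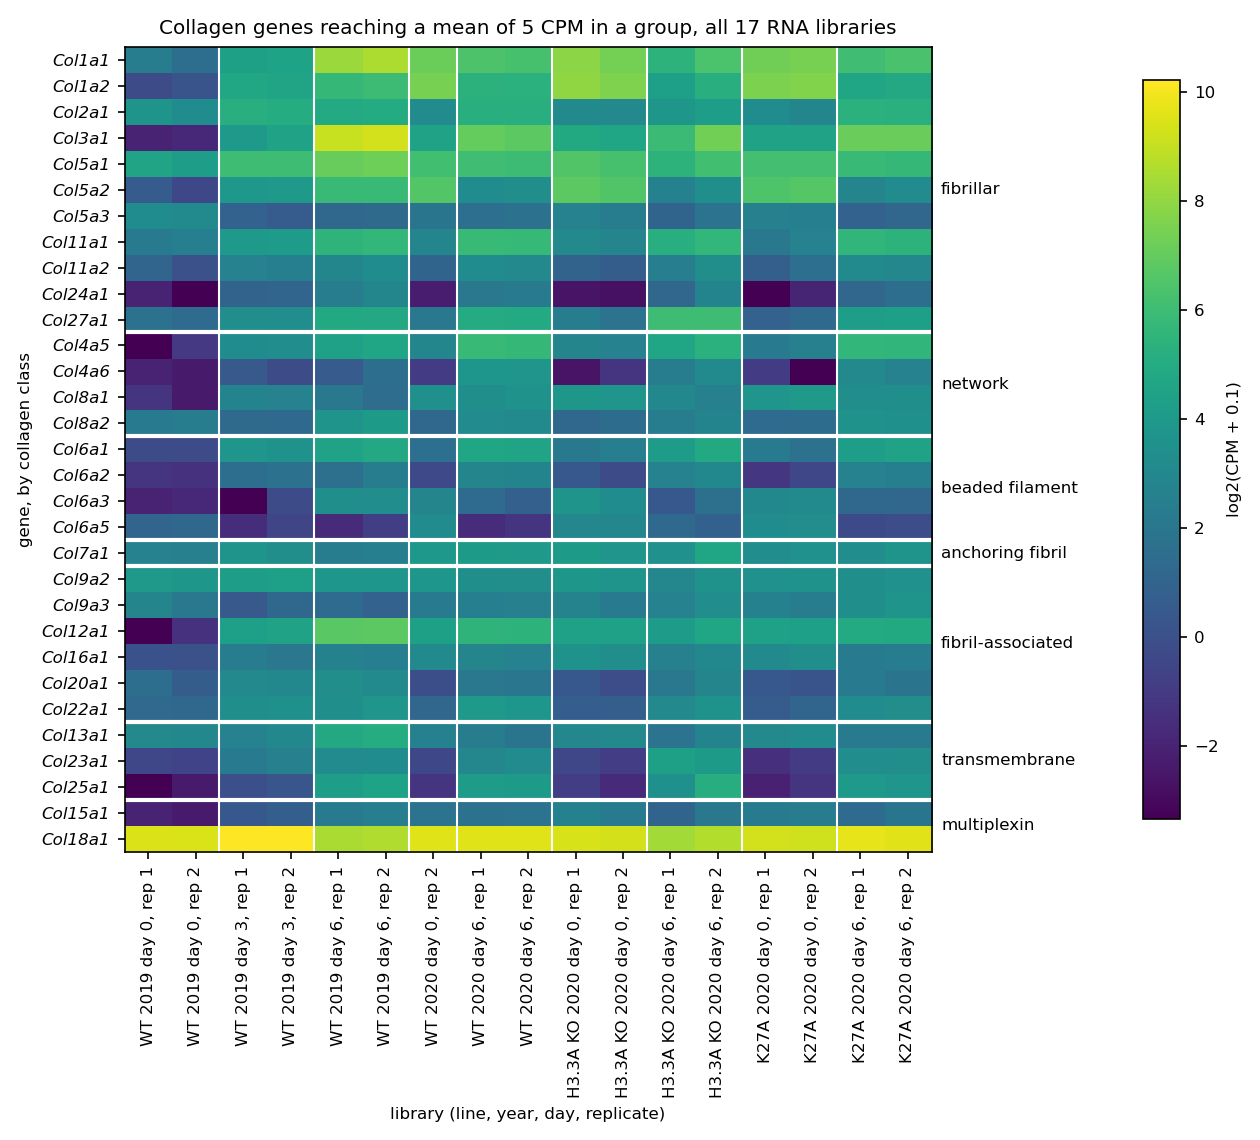
Level of the 31 collagen genes that reached a mean of 5 CPM (rows, by class) in each of the 17 RNA libraries (columns), as log2(CPM + 0.1) by colour. Day 0 of 2019 is low for Col1a2, Col3a1, Col5a2 and Col12a1, day 0 of 2020 is not, and Col18a1 is high in every library.

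Among the classes, fibrillar chains had the highest summed level at day 6. Their sum went from 64.3 and 50.2 CPM at day 0 to 217.5 and 219.5 at day 3 and 1204.5 and 1418.1 at day 6. Of the 11, 10 rose between days 0 and 6 (background 41.4%). Col3a1, the type III chain of skin and vessel walls, lay at 0.159 and 0.188 CPM at day 0, 15.8 and 21.9 at day 3 and 551 and 637 at day 6. All 3 days are separate, and day 0 rests on 3 counts in total. The gene lies at chr1:45311538-45349706 (mm10, + strand), 24.6 kb from the end of Col5a2 (chr1:45374321-45503282, − strand). The ratio of day 6 to day 0 was 3328, with an exact 95% counting interval of 1139 to 16141. Such intervals are given where day 0 had few counts, and they cover counting error only. Col1a1 (chr11:94936224-94953042), 1 of the 2 type I chains of bone and skin, measured 5.25 and 2.91 CPM, then 20.7 and 22.9, then 292 and 379.6 (log2 fold change day 6 against day 0 6.44 ± 0.19, adjusted p = 1.31e-11). Its partner Col1a2 (chr6:4504814-4541544) measured 0.795 and 1.03, then 27.2 and 23.7, then 52.5 and 62.8 CPM (5.90 ± 0.22, adjusted p = 7.88e-11). The 2 partners kept unequal steps: Col1a2 rose by 4.72 ± 0.24 on the log2 scale to day 3 and by 1.18 ± 0.12 after it, and Col1a1 by 2.5 ± 0.24 and 3.94 ± 0.14.

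Col5a2, which nucleates type I fibrils with Col5a1, measured 1.43 and 0.657 CPM at day 0, 15.1 and 15.6 at day 3 and 55.0 and 59.0 at day 6 (5.88 ± 0.21). Col5a1 was already at 24.0 and 18.3 CPM at day 0 and reached 133 and 150.4 at day 6 (2.76 ± 0.12). The third chain of that type, Col5a3, went the other way: it measured 9.70 and 8.54 CPM at day 0, 1.79 and 1.44 at day 3 and 2.23 and 2.49 at day 6 (fell by 1.96 ± 0.25 on the log2 scale, adjusted p = 8.95e-06). Col2a1 rose early, from 12.6 and 9.39 CPM to 37.1 and 33.9 at day 3, and stayed at 31.3 and 31.8 at day 6 (day 6 against day 3, adjusted p = 0.227). Col11a1, its partner in cartilage fibrils, measured 4.93 and 5.73, then 16.0 and 17.4, then 44.5 and 49.6 CPM. Col11a2 rose from 2.07 and 0.939 to 7.29 and 9.40 CPM. Col27a1, a cartilage fibrillar chain, went from 3.18 and 2.53 through 10.1 and 9.75 to 30.3 and 28.9 CPM (3.39 ± 0.18). Col24a1 had 1 count at day 0 and 4.98 and 7.28 CPM at day 6, a ratio of 102 with an interval of 18.0 to 4049.

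Among the 7 network chains, all 4 tested rose (background 41.4%), and the others were too low to be tested. Col4a5, a basement membrane chain, measured 0 and 0.375 CPM at day 0, 9.61 and 9.82 at day 3 and 21.1 and 24.5 at day 6 (6.51 ± 0.36). Its neighbour Col4a6, which starts 1309 bp away in the opposite direction, reached only 1.41 and 2.86 CPM at day 6. Col8a1 peaked at day 3 with 6.92 and 6.42 CPM, and Col8a2 dipped to 2.44 and 2.34 CPM at day 3 before 12.9 and 16.7 at day 6. The 2 short network chains therefore moved in opposite directions in both steps: Col8a1 changed by 5.13 ± 0.50 and −0.92 ± 0.25, and Col8a2 by −1.07 ± 0.27 and 2.61 ± 0.22. Of the collagen VI group, Col6a1 rose from 0.795 and 0.751 to 22.4 and 28.8 CPM and Col6a2 from 0.318 and 0.282 to 3.05 and 5.25. Col6a3, the third chain of the classical trimer, lay at 0 and 0.756 CPM at day 3 and at 10.6 and 9.86 at day 6. Col6a5 fell from 2.07 and 2.25 to 0.223 and 0.461 CPM, and Col6a4 fell by 3.69 ± 0.55 on the log2 scale.

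Col12a1, a fibril-associated chain of tendon and fascia, had 0 and 0.282 CPM at day 0, 19.9 and 22.0 at day 3 and 108.5 and 114 at day 6, a ratio of day 6 to day 0 of 626 with an interval of 214 to 3039. Of the 8 tested fibril-associated chains 6 rose (background 41.4%). Col9a3 alone fell (7.0 and 4.13 to 2.53 and 1.84 CPM, background 36.6%). Col9a2 gave 15.4 and 14.2 CPM at day 0 and 14 and 13.9 at day 6 (adjusted p = 0.556). Col22a1, of tissue junctions, rose from 2.39 and 2.25 to 10.6 and 13.5 CPM, Col20a1 from 2.86 and 1.5 to 10.1 and 8.75, and Col16a1 from 0.954 and 0.939 to 6.10 and 5.71. Col7a1, the anchoring fibril chain of skin, measured 6.36 and 5.91, then 12.9 and 10.3, then 5.06 and 5.71 CPM. It was higher at day 3 and not called between days 0 and 6 (adjusted p = 0.417).

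Of the 4 tested transmembrane chains 3 rose between days 0 and 6 (background 41.4%). Col25a1, made in motor neurons and muscle, had 1 count at day 0, 0.895 and 1.13 CPM at day 3 and 18.8 and 22.8 at day 6, a ratio of 349 with an interval of 62.4 to 13827. Col13a1 stayed at 6.27 and 7.86 CPM at day 3 against 8.11 and 7.98 at day 0, and was 29.2 and 33.6 at day 6. Col23a1 went from 0.636 and 0.563 through 4.8 and 5.82 to 9.08 and 9.49 CPM. Col18a1 (chr10:77052178-77166548, − strand), the basement membrane multiplexin and source of endostatin, was the most abundant collagen here at day 0: 735 and 699.9 CPM, then 1199 and 1169, then 369 and 395. It rose by 0.71 ± 0.07 to day 3 and fell by 1.63 ± 0.07 after it. Per kilobase of exon, it led all groups but 2019 day 6, with 105.6 CPM per kb at 2019 day 0 against 5.06 for the next gene, Col9a2. At 2019 day 6 the order was Col3a1 (106.7 CPM per kb), Col1a1 (56.6) and Col18a1 (56.2), and the last 2 differed by less than the spread of their duplicates. Its relative Col15a1 rose from 2 counts to 4.84 and 5.53 CPM.

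The wild type sequenced in 2020 gave another picture for the type I, III, V and VI chains. Between days 0 and 6, 16 of 37 tested collagen genes rose (background 36.0% of 14760 tested genes) and 7 fell (background 34.8%), 23 in all against 70.8%. Median log2 fold changes were 0.67 for the collagen genes and 0.08 for all. The 7 that fell were Col1a1, Col1a2, Col5a2, Col6a3, Col6a4, Col6a5 and Col17a1. Col1a2 measured 172.7 CPM at day 0 and 42.3 and 40.0 at day 6 (fell by 2.07 ± 0.26 on the log2 scale, adjusted p = 6.56e-05). Col5a2 measured 96.0 and then 9.68 and 10.3 CPM (fell by 3.27 ± 0.25, adjusted p = 1.93e-06). Col1a1 measured 145 and then 86.5 and 78.3 CPM (−0.82 ± 0.32, adjusted p = 0.0407), a call that was lost without replicate 1 or without replicate 2 of the day 6 pair. Col3a1 rose from 22.5 to 132 and 113 CPM (2.45 ± 0.48) and Col12a1 from 20.5 to 45.2 and 43.4.

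**Figure D3:**
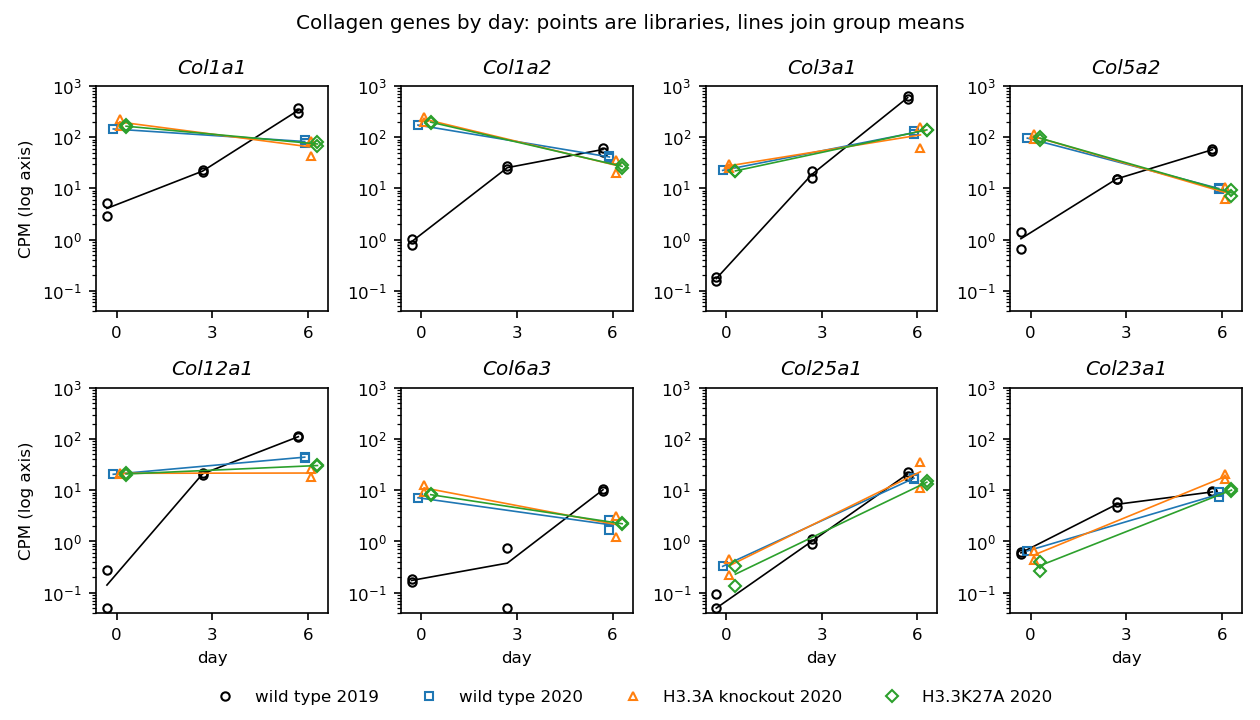
Level of 8 collagen genes (CPM, log axis) by day, with 1 point per library, lines through group means, and points shifted sideways by series; the levels at 0 CPM are drawn at 0.05. The 5 day 0 libraries of 2020 lie above both of 2019 for Col1a1, Col1a2, Col3a1, Col5a2, Col12a1 and Col6a3.

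By class, 6 of 11 fibrillar chains rose and 3 fell in 2020, and 3 of 6 tested network chains rose. Of the 6 in the collagen VI group 2 rose and 3 fell, and 3 of 7 tested fibril-associated chains rose. Of all tested genes 36.0% rose and 34.8% fell. The classes are small, none was tested against these shares, and no class result is drawn. Col11a1 measured 6.98 CPM at day 0 and 55.9 and 54.4 at day 6. The basement membrane chain Col4a5 measured 7.47 and then 58.3 and 52.7 CPM, and Col4a6 measured 0.436 and then 14 and 13.5 CPM (4.96 ± 0.67). Col6a1 measured 3.0 and then 25.5 and 24 CPM, while Col6a3 measured 7.14 and then 2.58 and 1.69 CPM. The chains of the classical collagen VI trimer thus had calls in opposite directions in 2020, with Col6a1 and Col6a2 higher at day 6 and Col6a3 lower. Among low genes, Col6a4 measured 3.49 and then 0.27 and 0.0434 CPM, and it had also fallen in 2019, from 4.61 and 2.35 to 0.298 and 0.184 CPM.

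Levels at day 0 differed between the years. Over the 5 day 0 libraries of 2020, from all 3 lines, Col1a1 ranged from 145 to 230.3 CPM (median 165), against 5.25 and 2.91 in 2019. Col1a2 ranged from 172.7 to 253 (median 198), against 0.795 and 1.03. Col5a2 ranged from 90.2 to 114 CPM, against 1.43 and 0.657. Col3a1 ranged from 21.9 to 29.8 CPM, against 0.159 and 0.188, and Col12a1 from 19.8 to 21.8, against 0 and 0.282. These 5 genes were picked among those with the largest differences between the years, so their lack of overlap adds no support. The share of all genes without overlap was not computed, and the years were not tested against each other at day 0 alone. Some other genes of matrix-producing cells, picked after their values were seen, were also higher at day 0 of 2020: the cross-linking oxidase Lox had 157 to 186 CPM in 2020 against 0.159 and 0.0939, Bgn (biglycan) 136 to 156 against 0 and 0.469, Tnc (tenascin C) 158 to 188 against 0.477 and 0.469, and the smooth muscle actin Acta2 139 to 167 against 5.09 and 6.29. Others were not: the gelatinase Mmp2 had 17.5 to 20.9 CPM in 2020 against 30.2 and 36.8, Pcolce2 had 30.2 to 38.9 against 68.1 and 55.8, and Dcn, Lum and Fmod lay between 0 and 0.742 CPM in both years. The part of these genes in the collagen result was not tested, and the sequencing date and anything else that differed between the 2 sets cannot be told apart. At day 6 the 2020 wild type also differed from 2019 for these chains. Col3a1 lay at 132 and 113 against 551 and 637 CPM, and Col1a1 at 86.5 and 78.3 against 292 and 379.6 CPM. Wild-type marker sums at day 6 differed too, in both directions. Fibroblast and mesenchyme markers summed to 449 and 416.5 CPM in 2020 against 1199 and 1228 in 2019. Neuron markers summed to 266 and 144 against 1261 and 1047, and neural progenitor markers to 308 and 261 against 965 and 863. Surface ectoderm markers were higher in 2020, at 1148 and 1352.5 against 343 and 373. That sum was already 1009.0 and 1044.6 CPM in stem cells of 2019 and 1319.3 in wild-type stem cells of 2020, so it is not specific to the cell type. Sums can also follow a few abundant markers. The neural progenitor sum of 2019 was 1105.9 and 1144.8 CPM at day 0, yet 7 of 8 markers rose by day 6 (background 41.4%). The part of these markers in the collagen result was not tested.

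A test of the difference between the 2 years' day 6 changes called 17 of 38 tested collagen genes, 14 with a lower change in 2020 (background 19.7% of 15343) and 3 with a higher one (background 9.82%), against 29.5% either way. Its median was −1.32 over the collagen genes and −0.13 over all genes. The largest were Col3a1 (−9.20 ± 0.90), Col5a2 (−9.16 ± 0.38), Col12a1 (−8.12 ± 0.42), Col1a2 (−7.99 ± 0.44), Col6a3 (−7.52 ± 0.89) and Col1a1 (−7.27 ± 0.46). Col3a1, Col12a1 and Col6a3 rest on 3 counts each at day 0 of 2019. For Col12a1 the counting interval of the 2019 ratio alone, 214 to 3039, is wider than its ± value implies. The 3 with a higher change were Col5a3 (1.67 ± 0.40), Col9a3 (1.63 ± 0.50) and Col18a1 (0.91 ± 0.14). The difference was not called for the other 21. Among them, Col27a1 changed by 3.39 ± 0.18 in 2019 and 2.89 ± 0.21 in 2020 (difference −0.51 ± 0.28, adjusted p = 0.188), Col11a1 by 3.10 ± 0.15 and 2.98 ± 0.26 (difference −0.14 ± 0.30), and Col23a1 by 3.93 ± 0.32 and 3.65 ± 0.33 (difference −0.30 ± 0.53). Col25a1 was at 17.6 and 16.8 CPM at day 6 of 2020, after 0.327 at day 0. Col18a1 stayed level in 2020, at 771 CPM and then 769.8 and 771, where it had fallen in 2019.

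**Figure D4:**
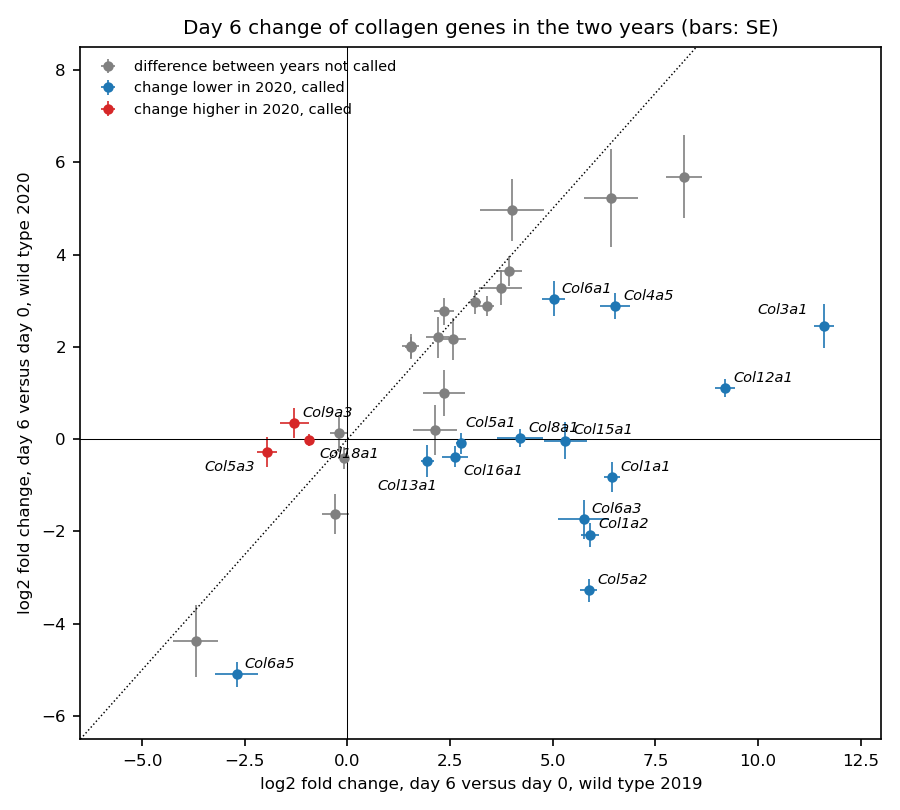
Log2 fold change from day 0 to day 6 of each collagen gene tested in both years, in wild type of 2019 (horizontal) and of 2020 (vertical), with approximate standard errors as bars, the dotted line at equality, and colours for the test of the difference. Bars can be narrower than the counting error where day 0 had few counts. The called genes with a lower change in 2020 lie below the line, with Col1a1, Col1a2, Col5a2 and Col6a3 above 0 in 2019 and below 0 in 2020.

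The promoter marks of day 0 and the RNA of 2019 were set side by side. Over all 20 genes with H3K27me3 at day 0, tested or not, the median level was 0.869 CPM at day 0 and 5.76 at day 6, and over the 22 without it 0.86 and 8.81 CPM. Over the 7 with H3.3K27me3 the medians were 0.159 and 9.28 CPM. Under 1 CPM at day 0 of 2019 were 6 of these 7, 11 of the 20 with H3K27me3 and 12 of the 22 without it. The low level was not shared by all 7 in 2020. Medians over the 5 day 0 libraries of 2020 were 21.1 CPM for Col12a1, 8.53 for Col2a1, 4.96 for Col15a1 and 1.48 for Col14a1. They were 0.441 for Col23a1, 0.325 for Col25a1 and 0 for Col26a1. Of the 7, at day 0 of 2019, Col25a1 had 1 count, Col15a1 2, Col26a1 2, Col12a1 3, Col14a1 9, Col23a1 10 and Col2a1 179. Genes this low at day 0 are tested only where a later day is high, so no count of those that rose is given. Col3a1, with neither mark at its promoter in both duplicates, had the highest fold change of the tested collagen genes. Col1a1 and Col1a2 had an H3K27me3 peak in both duplicates at day 0 and in 1 at day 6. The ChIP libraries were sequenced between the 2 RNA sets, and which set's day 0 cells they resemble was not tested.

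In the edited lines, as in the wild type of 2020, Col1a2 and Col5a2 fell. From day 0 to day 6, 16 collagen genes rose and 13 fell in the H3.3A knockout (background 40.8% and 36.4%; 29 of 37 against 77.2%). In H3.3K27A, 20 rose and 12 fell (background 39.5% and 37.2%; 32 of 37 against 76.7%). In the knockout Col1a2 fell from 253 and 198 CPM to 20.1 and 36.7 and Col5a2 from 114 and 93.4 to 6.10 and 10.6. In H3.3K27A Col1a2 fell from 191 and 203 CPM to 25.5 and 28.5 and Col5a2 from 90.2 and 102 to 7.18 and 9.23. A test of the difference from wild type in the day 6 change called 1 collagen gene for the knockout, Col6a5 (3.22 on the log2 scale; 0.0813% of genes called), and 0 for H3.3K27A (0.766% of genes called by edgeR, with 5 collagen genes at an unadjusted p below 0.05). The Col6a5 difference was not called in any of the 4 fits that left out a wild-type day 6 library or a knockout day 0 library, and 6 and 18 collagen genes were called without knockout day 6 replicate 1 or 2, where 2.98% and 19.1% of all genes were. The 2 edited lines differed from each other in the day 6 change of 3 collagen genes (background 5.39%). Col2a1 and Col18a1 had a higher change in H3.3K27A (1.17 and 1.23; background 3.23%), and Col6a5 a lower one (−1.76; background 2.16%).

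At day 6, 8 of 37 collagen genes differed between the H3.3A knockout and wild type, 3 higher (background 6.98%) and 5 lower (background 4.42%), against 11.4% either way. Col27a1 (chr4:63214004-63334991), whose promoter sequence is printed above, lay at 65.7 and 65.5 CPM in the knockout and 32.4 and 31.1 in wild type (1.06 ± 0.13, adjusted p = 0.00233). Col23a1 lay at 20.6 and 16.3 against 7.52 and 9.11 (1.15 ± 0.18, adjusted p = 0.00527). Col6a5 lay at 2.37 and 1.78 against 0.231 and 0.304 (2.93 ± 0.29, adjusted p = 0.00101). The pairs of these 3 genes did not overlap, but the genes were picked by a call on the same libraries, so this adds no support. The share of all genes without overlap was not computed. Col18a1 was lower, at 326.5 and 408 CPM against 769.8 and 771 (−1.06 ± 0.10, adjusted p = 0.00101). Col2a1 was lower too, at 14.1 and 19.3 against 36.2 and 36.2 (−1.10 ± 0.16, adjusted p = 0.00393). Col12a1 lay at 17.9 and 25.5 against 45.2 and 43.4 (−1.02 ± 0.15), Col4a5 at 25.3 and 39.7 against 58.3 and 52.7 (−0.76 ± 0.19) and Col8a1 at 7.89 and 5.96 against 10.8 and 11.8 (−0.70 ± 0.16).

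The knockout duplicates of day 6 differed from each other in several chains. Col1a1 lay at 43.6 CPM in replicate 1 and 85.1 in replicate 2, Col3a1 at 60.6 and 161, Col25a1 at 11.1 and 35.0 and Col7a1 at 11.4 and 25.8. Replicate 1 was the lower in each of these 4 genes, and it had the higher endoderm marker sum (14519 against 9267 CPM). None of the 4 was called against wild type. Without replicate 1 of the knockout 13 collagen genes were called, and without replicate 2 25 were, against 14.4% and 40.9% of all genes. Without replicate 1 or 2 of the wild type 4 and 6 were called, against 1.43% and 2.2%. Col2a1, Col6a5, Col18a1 and Col27a1 were called in all 4 of these fits, with adjusted p between 1.75e-08 and 0.0426. The part of the endoderm markers in these differences was not tested.

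**Figure D5:**
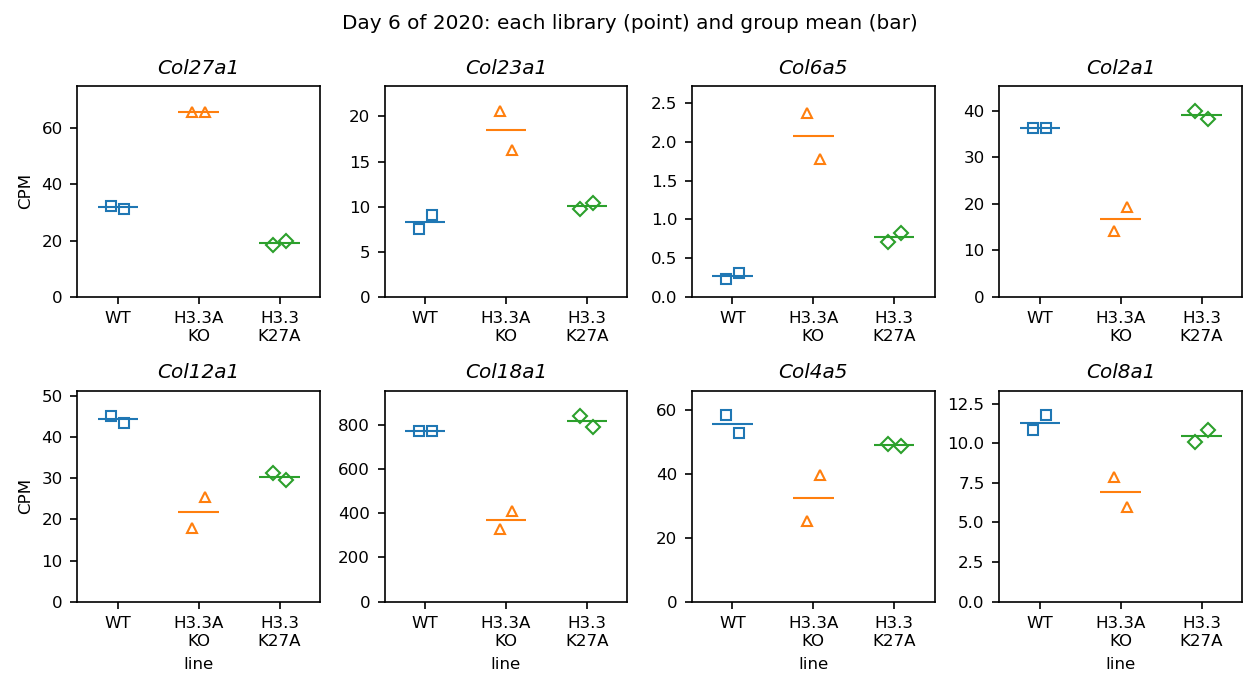
Level (CPM, linear axis from 0) of the 8 collagen genes called between H3.3A knockout and wild type at day 6, in each library of the 3 lines (points) with group means (bars). Col27a1 is highest in the knockout, at 65.7 and 65.5 CPM, and lowest in H3.3K27A, at 18.3 and 19.7.

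H3.3K27A differed from wild type at day 6 in 1 of 37 collagen genes (background 2.04%, with 1.13% higher and 0.908% lower), with 9 at an unadjusted p below 0.05. This was Col27a1, at 18.3 and 19.7 CPM against 32.4 and 31.1 (−0.74 ± 0.14, adjusted p = 0.0272, edgeR). The call was lost in each of the 4 fits that left out 1 library. Col6a5 lay at 0.710 and 0.831 CPM against 0.231 and 0.304 (1.5 ± 0.33, adjusted p = 0.0507). H3.3K27A against the knockout gave 8 calls (background 18.7%), 5 higher (9.03%) and 3 lower (9.64%). Higher were Col2a1 (39.9 and 38.3 against 14.1 and 19.3 CPM), Col8a1, Col8a2 (11.8 and 10.9 against 5.05 and 6.88), Col14a1 and Col18a1 (840.0 and 788 against 326.5 and 408). Lower were Col27a1 (−1.80 ± 0.14, adjusted p = 0.000109), Col23a1 (9.74 and 10.4 against 20.6 and 16.3) and Col6a5. Col2a1, Col18a1 and Col27a1 stayed called in all 4 fits that left out 1 library; those fits gave 17 and 16 calls without knockout replicate 1 or 2, and 3 and 5 without H3.3K27A replicate 1 or 2, where 26.4%, 39.5%, 4.88% and 7.37% of all genes were called.

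At day 0 none of the 37 collagen genes was called by edgeR in the 3 comparisons of lines. The background was 0.122% for knockout against wild type, 1.73% for H3.3K27A against wild type and 1.27% for H3.3K27A against the knockout, and the collagen genes at an unadjusted p below 0.05 numbered 0, 2 and 3. DESeq2 called 0, 1 and 1, in both cases Col27a1. Col27a1 lay at 1.82 and 2.36 CPM in H3.3K27A, 4.25 in wild type and 5.00 and 3.47 in the knockout. The log2 difference at day 0 was −1.05 ± 0.25 against wild type (adjusted p = 0.0823) and −1.03 ± 0.22 against the knockout (adjusted p = 0.0583). The day 6 change of Col27a1 did not pass the test of a difference between H3.3K27A and wild type (0.30 ± 0.28, adjusted p = 0.796).

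Genes that make, trim, bind and degrade collagen were read from 6 lists. Of all tested genes, 41.4% rose and 36.6% fell in 2019, 36.0% rose and 34.8% fell in 2020, and 6.98% were higher and 4.42% lower in the knockout than in wild type at day 6 (1.13% and 0.908% in H3.3K27A). Of 23 tested hydroxylases, chaperones and secretion genes, 17 rose and 2 fell in 2019 between days 0 and 6, among them P3h2 (prolyl 3-hydroxylase, 6.35 ± 0.36) and Serpinh1, the collagen chaperone HSP47 (3.47 ± 0.07); 15 rose and 2 fell in 2020. In the knockout at day 6, 13 of the 23 were higher than in wild type and 0 lower, with P4ha1 (2.11 ± 0.25), P4ha2 (2.04 ± 0.24) and Plod2 (1.94 ± 0.23), which hydroxylate proline and lysine, while 1 was higher in H3.3K27A (P4ha3, 1.30 ± 0.14). The endoderm markers above were high in the same knockout libraries, and their part was not tested. Of 13 propeptide proteases and oxidases, 8 rose and 4 fell in 2019 and 3 rose and 7 fell in 2020. Bmp1, which trims procollagen, rose in 2019 (4.63 ± 0.15), Pcolce2, its enhancer, fell in both years (by 6.29 ± 0.23 and 5.76 ± 0.19), and Lox fell in 2020 (by 5.09 ± 0.20). Loxl2 was higher in the knockout (2.01 ± 0.23).

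Of 8 tested collagen receptors 6 rose and 0 fell in 2019 and 3 rose and 3 fell in 2020, the latter near the shares of all genes (36.0% and 34.8%). Ddr2, a receptor for fibrillar collagen, changed by 4.70 ± 0.17 and −1.36 ± 0.40. Degrading proteases and inhibitors rose in 5 of 7 in 2019 (1 fell) and in 4 of 9 in 2020 (1 fell), with Mmp16 up in both (4.91 ± 0.35 and 4.33 ± 0.52). Fibril-binding proteoglycans and glycoproteins rose in 10 of 14 in 2019 (2 fell) and in 6 of 17 in 2020 (8 fell). The fibril-binding decorin gene Dcn had 0 counts at day 0 of 2019 and was at least 76.5-fold higher at day 6. Transcription factors of collagen-producing cells rose in 17 of 18 in 2019 (0 fell) and in 16 of 19 in 2020 (1 fell). Sox9, the cartilage regulator, rose by 8.75 ± 0.20 and 5.24 ± 0.24, and Tcf21, of mesenchymal progenitors, had 0 counts at day 0 of 2019 and was at least 354-fold higher at day 6. Between the knockout and wild type at day 6, the last 4 lists had 1, 3, 1 and 1 genes higher and 1, 1, 3 and 2 lower, with Sparc (1.95 ± 0.25) and Snai1 (2.41 ± 0.40) higher. Medians over the lists in 2019 lay between 1.1 and 4.15, against 0.09 over all genes, and these counts are descriptions. List genes near 0 at day 0 also enter the test only through the days at which they are high. This bears on the counts of those that rose and on the medians. Sox9 and P3h2 had 4 counts each at day 0 of 2019, so their ± values for 2019 can be narrower than the counting error.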

How the data were processed

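Gene counts of 17 polyA RNA libraries were used as deposited: per the submitters' processing notes, reads were aligned to mm10 with STAR 2.5.2a and counted with HTSeq. Rows that name no gene (no feature: 25.7% to 43.3% of reads in 2019, 11.3% to 16.8% in 2020) were left out. Per the file headers, the authors called ChIP peaks with MACS2 2.2.6 without a control library. The deposited peak tables give pileup (a signal), fold enrichment (a ratio) and −log10 p and q values. In the deposited filtered peaks the score is the same number in every line, so only positions were used, and how they were filtered is not stated. The authors' deposited region tables give log2 differences, p-values and signal per library, and their deposited RNA table gives log2 fold changes and adjusted p-values. ChIP libraries, each sequenced 3 times, held 9608 to 26215 filtered peaks.

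Genes were tested with edgeR 4.0.16 (limma 3.58.1, R 4.3.3): filterByExpr, TMM scaling and the quasi-likelihood test, with Benjamini-Hochberg adjustment over all tested genes and a threshold of 0.05. The 6 libraries of 2019 and the 11 of 2020 were fitted separately. The difference between years was fitted on all 17. Wild type at day 0 of 2020 has 1 library, which is assumed to vary like the other groups. Standard errors are the log2 fold change divided by the square root of F. They are approximate and can be narrower than the counting error where a group holds few counts. Displayed CPM values use 1 TMM scaling over the 17 libraries. The test was run on simulated data first. Promoters and motifs were computed in Python 3.11.15 with pandas 2.3.3 and scipy 1.17.1.

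Every collagen gene was accounted for, those with a group mean of at least 5 CPM singly. Of each pathway list, up to 4 called genes with the largest change per comparison were eligible to be named. Matrix and muscle genes at day 0 (Lox, Bgn, Tnc, Acta2, Mmp2, Pcolce2, Dcn, Lum and Fmod) and the knockout genes that differ between duplicates were chosen after their values were seen. The members and lists were chosen with earlier results of these data known. Alternatives were size factors of DESeq2 1.42.0 (RLE), no low-count filter, DESeq2's own test, a replicate block, all 17 libraries in 1 fit, each library left out, and other peak rules.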

Additional observations from a re-analysis of the deposited data

Results flagged for a closer look

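These results had a day 6 change that differed between groups by the test of the difference itself (edgeR, adjusted p below 0.05); values are differences of log2 fold changes. Between the H3.3A knockout and wild type, the difference was 3.22 for Col6a5. Between H3.3K27A and the knockout, it was 1.17 for Col2a1, 1.23 for Col18a1 and −1.76 for Col6a5. Of these 3, Col18a1 was called in every fit that left out 1 library.

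Between the wild type of 2020 and that of 2019, the fibrillar chains gave −7.27 for Col1a1, −7.99 for Col1a2, −9.20 for Col3a1, −2.86 for Col5a1, −9.16 for Col5a2 and 1.67 for Col5a3. Network chains gave −3.66 for Col4a5 and −4.22 for Col8a1. Chains of the collagen VI group gave −2.0 for Col6a1, −7.52 for Col6a3 and −2.40 for Col6a5. Fibril-associated chains gave 1.63 for Col9a3, −8.12 for Col12a1 and −3.01 for Col16a1. The transmembrane Col13a1 gave −2.42, and the multiplexins −5.39 for Col15a1 and 0.91 for Col18a1. Of the 17, 14 were called in every fit that left out 1 library. The single wild-type day 0 library of 2020, on which all of these differences rest, could not be left out. The values for Col3a1, Col6a3, Col8a1 and Col12a1 rest on 3 counts each at day 0 of 2019. That for Col15a1 rests on 2, that for Col4a5 on 4, and those for Col6a1 and Col16a1 on 13 and 16. Col1a2 and Col5a2 were also low there, at 0.795 and 1.03 CPM and at 1.43 and 0.657 CPM.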

How the results depend on the processing

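No result reversed. Of the single-gene results, 210 in all, 1013 alternative values other than leave-one-out stayed on the same side of the threshold and 20 lost the call; leaving out 1 library kept 763 and lost 76. RLE scaling or 1 fit of all libraries moved the median log2 fold change of all genes by at most 0.04. With RLE scaling, the share of all called genes that were higher moved from 61.2% to 53.1% for knockout against wild type at day 6. For H3.3K27A against knockout at day 6 that share moved from 48.4% to 54.0%. With 2 libraries a group, and 1 for wild type at day 0 of 2020, small differences between lines were not resolved. That single library was never left out, so results that rest on it were not checked for it.

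The count of collagen genes called for H3.3K27A against wild type at day 6 was 1, and 4 with no low-count filter, 2 with DESeq2, 4 with all 17 libraries in one fit, and 0 to 0 with 1 library left out. H3.3K27A against wild type and against the knockout at day 0 gave 0, and 1 (Col27a1) with no low-count filter, 1 with DESeq2 and 1 with all 17 libraries. The knockout minus wild type difference of the day 6 change gave 1, and 3 with no low-count filter, 4 with DESeq2 and 3 with all 17 libraries. The share of all its calls that were higher moved from 50.0% of 12 genes to 61.7% in that last fit. The cause was not tested. The shares of all genes called under these settings are not given here, so these counts describe the collagen genes only.

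Leaving out 1 library gave 30 to 31 calls for 2019 day 3 against day 0, 21 to 23 for day 6 against day 3, 32 to 33 for day 6 against day 0, and 22 to 22 for the wild type of 2020. It gave 26 to 32 for the knockout and 26 to 31 for H3.3K27A (day 6 against day 0). At day 6 it gave 4 to 25 for knockout against wild type and 3 to 17 for H3.3K27A against knockout. Differences of the day 6 change gave 0 to 18 (knockout minus wild type), 1 to 15 (H3.3K27A minus knockout; 5 without knockout day 6 replicate 1 and 15 without replicate 2, with 13.9% and 26.5% of all genes called) and 15 to 17 (years).

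Peaks in either duplicate gave 18 promoters for H3.3K27me3 at day 0 and 2 at day 6, 20 for H3K27me3 at day 6, 10 and 9 for H3.3 and 2 and 3 for H3. An enrichment of at least 3, chosen after the data were seen, gave 0 for H3.3K27me3 at day 0, 6 and 2 for H3K27me3, and 0 and 0 for H3.3. A peak over the whole window gave 1 and 1 for H3.3. Single duplicates gave 10 to 15 and 1 to 1 for H3.3K27me3, 22 to 23 and 13 to 18 for H3K27me3, 4 to 8 and 3 to 8 for H3.3, and 0 to 2 and 0 to 3 for H3. The shares of all promoters under these rules are not given here, so the counts describe the collagen promoters only.

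The label numbers did not pair the samples: deviations of same-numbered libraries correlated with r from −0.346 to 0.124 over 13 pairs of groups, 1 of them over 0.1. With the replicate block, the counts were 0 for H3.3K27A against wild type at day 6 and 0 for the knockout minus wild type difference. The count was 7 for knockout against wild type at day 6, 6 for H3.3K27A against knockout, and 17 for the years. The shares of all genes called with the block are not given here.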
